A study of Mus musculus with 6 samples.

Results

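The Hippo pathway genes described here are 10 genes chosen by name: the coactivator genes Yap1 and Wwtr1, the transcription factor genes Tead1, Tead2, Tead3 and Tead4, the kinase genes Lats1 and Lats2, and the target genes Amotl2 and Ankrd1. All 10 were among the 22609 gene rows of the deposited tables, and all 10 had enough counts to be tested. The RNA came from primary hepatocytes, the main metabolic cells of the liver, of wild type C57BL/6 mice that were male and 4 months old. One group of 3 samples received phosphate-buffered saline (PBS) and the other group of 3 received 20 µg/mL of LRG1, a secreted leucine-rich glycoprotein, and both groups were harvested after 16 hours. The series title presents LRG1 as an adipokine tied to fatty liver and insulin resistance, and the comparison asks which hepatocyte genes differ in level after exposure to the protein. The labels name no separate mice or cultures for the 3 samples of a group, so a p-value here speaks only to the spread among these 6 samples, and that spread may be technical.

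The Hippo pathway is a kinase cascade that restrains organ growth. The kinases STK3 and STK4 (MST2 and MST1), with the scaffolds SAV1 and MOB1, activate LATS1 and LATS2, which phosphorylate the coactivators YAP and TAZ (the product of Wwtr1) and keep them out of the nucleus. Unphosphorylated YAP and TAZ bind TEAD factors, which recognise the DNA letters GGAATG, and raise the transcription of target genes. Some targets, among them Lats2 and Amotl2, encode inhibitors of YAP, so that the pathway holds itself in check. In the liver the pathway is known for setting organ size and for its part in the choice between hepatocyte and bile duct fate. YAP and TAZ are controlled mainly as proteins, and a transcript table does not measure their phosphorylation or location.

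LRG1-treated hepatocytes had more Tead2 RNA (2.58-fold, 95% interval 2.21 to 3.02) and more Amotl2 RNA (1.502-fold, 1.42 to 1.59) than PBS-treated ones, with n = 3 per group. Lats2 rose 1.26-fold, Tead1 1.153-fold and Lats1 1.083-fold, while Ankrd1 was 1.154-fold lower. Yap1, Wwtr1, Tead3 and Tead4 did not pass the threshold. In all, 5 of the 10 genes were higher and 1 was lower at an adjusted p under 0.05 in edgeR's quasi-likelihood test, and the same threshold was passed by 51.4% of all 12301 tested genes, with 25.5% higher and 25.8% lower. The share of called members, 60%, is near that background. Across the 13 alternative analyses, 4 to 6 members passed.

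The sequences shown are the stretches around each GGAATG, or its complement CATTCC, in the windows before the start sites of Yap1, Wwtr1, Amotl2 and Ankrd1, since these letters are the core that TEAD factors bind. For Tead2, the member with the highest fold change, the first 211 of the 250 bases before its start are given, and the last 39, which lie in an annotated untranslated exon, are left out. All come from RefSeq's promoter table on GRCm38.p6, whereas the counts were made on mm9. They are written 5′ to 3′ on the strand of the gene, and capitals mark the matched letters.
Yap1 (chr9:8004720-8004749, minus strand): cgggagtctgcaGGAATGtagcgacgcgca
Wwtr1 (chr3:57576029-57576058, minus strand): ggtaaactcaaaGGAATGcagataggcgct
Amotl2 (chr9:102717727-102717756, plus strand): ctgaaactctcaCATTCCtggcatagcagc
Ankrd1 upstream match (chr19:36120037-36120066, minus strand): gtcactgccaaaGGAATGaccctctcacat
Ankrd1 downstream match (chr19:36119950-36119979, minus strand): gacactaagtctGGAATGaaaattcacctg
Tead2 (chr7:45215542-45215752, plus strand): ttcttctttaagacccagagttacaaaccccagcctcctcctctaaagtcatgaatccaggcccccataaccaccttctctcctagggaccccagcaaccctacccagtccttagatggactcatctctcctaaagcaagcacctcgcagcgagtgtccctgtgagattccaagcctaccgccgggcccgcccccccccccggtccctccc

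The motif searched was GGAATG on both strands, in the 250 bases before each RefSeq start. Of 32851 promoters of this length, 12.6% held at least 1 match and 1.02% at least 2. RefSeq promoters were matched for 8 of the 10 members, all but Tead1 and Tead4, and 5 of these 8 had a match in at least 1 of their start windows. Counted by window, as for the 12.6%, 7 of their 12 windows held a match. The windows of Wwtr1 overlap and hold the same match, which is counted in both. Tead3 also has overlapping windows, with different matches. The Amotl2 match began 65 bases before the start. The Ankrd1 matches began 210 and 123 bases before it. In the GENCODE M21 annotation of GRCm38, the printed Amotl2 and Ankrd1 stretches lie within untranslated exons annotated for the same genes. The Yap1 stretch lies in no exon annotated for Yap1, and the Wwtr1 stretch in none annotated for Wwtr1. Exons of other genes were not looked up for these stretches. Tead3 had 3 matches over its start windows. Tead2, Lats1 and Lats2 had none, which says only that these letters are not in these windows. Amotl2, with 1 match, was higher with LRG1, and Ankrd1, with 2, was lower. The Ankrd1 call was lost in edgeR without PBS replicate 2 (adjusted p = 0.194). Yap1, Wwtr1 and Tead3, which also had matches, did not pass the threshold. Whether the letters bear on the changes was not tested.

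Counts in genes came to between 18625748 and 23036332 per library. The CPM values below are counts divided by the scaled total of tested genes in each library, so they compare a gene between libraries but not one gene with another. The hepatocyte markers were present in every library, with albumin (Alb) at 18466 to 19737 CPM in the PBS and 18141 to 18871 CPM in the LRG1 libraries. Of the 10 hepatocyte markers 6 were lower with LRG1 and none higher, while 25.8% of all tested genes were lower and 25.5% higher. The summed level of the 10 markers, most of it Alb, went from 26262-27598 to 24172-25237 CPM. Among the less abundant hepatocyte markers Tat was 7.69-fold, Cps1 4.32-fold, Hnf4a 1.23-fold and Serpinc1 1.15-fold lower, and Asgr1 did not pass the threshold. Of the 10 stellate cell and fibroblast markers 7 were tested, Col1a1 and Acta2 were higher and Reln lower, and the list summed to 52.5-59.0 CPM with PBS and 150.3-161.6 CPM with LRG1, or 43.3-45.2 and 45.8-48.0 CPM without Col1a1. Of 6 bile duct markers 3 were tested, Sox9 was 1.603-fold higher and Krt19 5.66-fold lower, and the list summed to 4446-4630.1 and 4325-4643 CPM, or 68.99-74.3 and 86.8-90.5 CPM without Spp1. Of the 8 sinusoidal endothelial markers 7 were tested, and 3 were lower and none higher (46.3-48.2 and 38.8-42.2 CPM). Of the 8 macrophage markers 7 were tested, Marco was higher, and Cd68 and Cd5l were lower. That list summed to 222-266 and 181-206 CPM, most of it Cd68 (210-257 and 170-195 CPM). Of the 5 mesothelial markers Upk3b, Wt1 and Gpm6a had no count in any library. The part of these other cells in the results below was not tested, and in such bulk samples fewer cells of a type and less RNA per cell cannot be told apart.

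**Figure D1:**
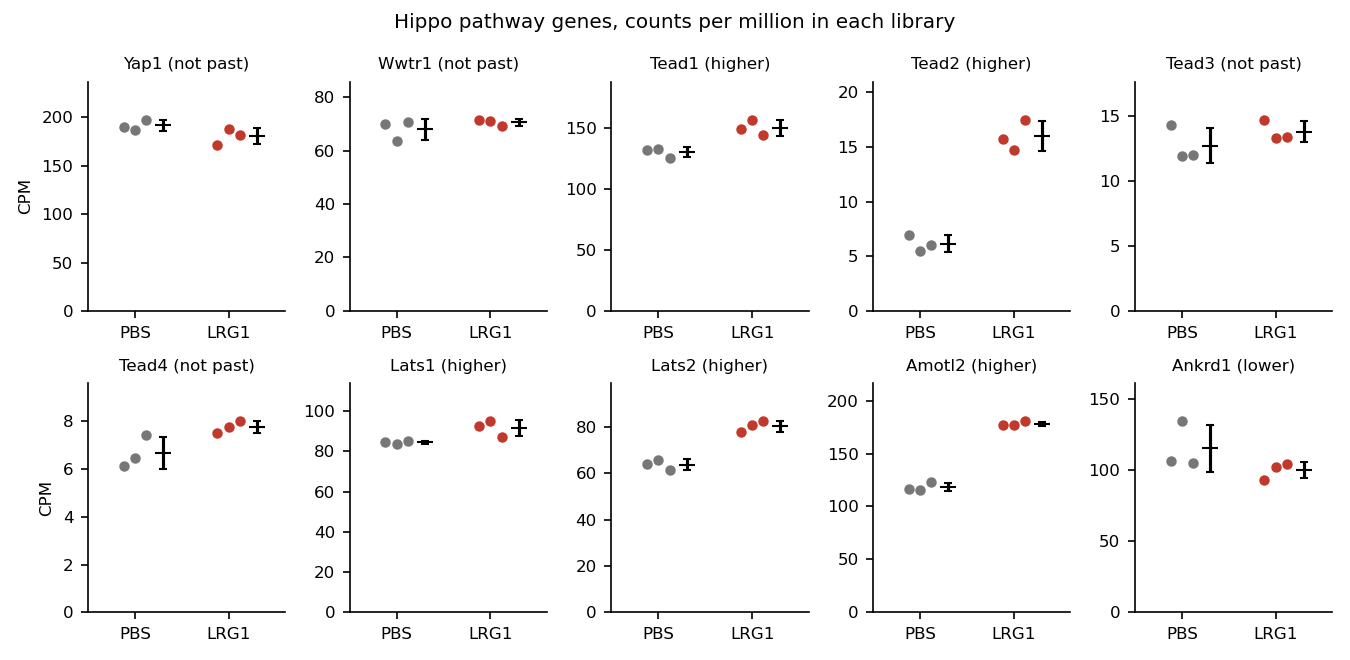
CPM (y axes, each from 0) of the 10 Hippo pathway genes in the 3 PBS (grey) and 3 LRG1 (red) libraries; points are libraries and the black marks beside them the mean ± SD (n = 3), and panel titles give the call at an adjusted p under 0.05. The Tead2, Amotl2 and Lats2 points of the 2 groups lie well apart, whereas those of Yap1, Wwtr1 and Tead3 overlap.

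Neither coactivator gene passed the threshold. Yap1 (chr9:7931999-8004596, minus strand, in GRCm38, as all positions here) had 190.0, 187 and 198 CPM in PBS replicates 1 to 3 and 172, 188 and 182 CPM in LRG1 replicates 1 to 3. LRG1 replicate 2 lay inside the PBS range, and the groups overlapped. The log2 fold change of Yap1 was -0.09 (SE 0.041, adjusted p = 0.0903), with a 95% interval from -0.17 to 0.0003, so a decrease of more than 0.17 on the log2 scale lies outside that interval. With trends of the fold change on gene length and GC content removed it was -0.13 and passed (adjusted p = 0.0126). Yap1 overlaps the transcript Gm20416 on the opposite strand over 116 bases of exon in GENCODE M21.

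Wwtr1 (chr3:57455649-57575910, minus strand), which encodes TAZ, had 70.0, 63.5 and 70.5 CPM with PBS and 71.6, 70.9 and 69.1 CPM with LRG1. PBS replicate 2 was the lowest library, and the other 5 lay between 69.1 and 71.6 CPM. Its log2 fold change was 0.05 (SE 0.050, adjusted p = 0.409, 95% interval -0.05 to 0.16), and leaving out each library gave 0.0054 (without PBS replicate 2) to 0.08 (without PBS replicate 3).

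The TEAD factors give the coactivators their DNA contact, and their genes did not move alike. Tead2 (chr7:45215753-45233644, plus strand) had 6.98, 5.497 and 5.997 CPM in the PBS libraries, from 138, 102 and 113 reads. In the LRG1 libraries it had 15.7, 14.7 and 17.5 CPM, from 316, 341 and 347 reads. Every LRG1 value was more than 2-fold above every PBS value (log2 fold change 1.37, SE 0.11, adjusted p = 2.37e-10). Differences of at least 2-fold that passed the threshold were found for 9.5% of the tested genes. Over all alternatives the log2 fold change of Tead2 lay between 1.29 and 1.47. Cd37, which overlaps Tead2 by 13 bases on the opposite strand, had at most 8 reads in any library.

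Tead1 (chr7:112679318-112906807, plus strand), the TEAD gene with the most reads here, had 132, 133 and 125 CPM with PBS and 149, 157 and 144 CPM with LRG1. The groups did not overlap, but the difference was small (log2 fold change 0.21, SE 0.043, adjusted p = 0.000291). Tead4 (chr6:128224288-128300823, minus strand) had 6.12, 6.47 and 7.43 CPM with PBS and 7.52, 7.77 and 8.01 CPM with LRG1. All LRG1 values of Tead4 were above the PBS values, yet it did not pass (log2 fold change 0.22, SE 0.12, adjusted p = 0.127, 95% interval -0.03 to 0.47). It had 120 to 180 reads per library, and its interval includes an increase as large as that of Tead1. Tead3 (chr17:28331671-28350817, minus strand) had 14.3, 11.9 and 11.99 CPM with PBS and 14.7, 13.3 and 13.4 CPM with LRG1, and the groups overlapped through PBS replicate 1 (log2 fold change 0.11, adjusted p = 0.333, 95% interval -0.08 to 0.31). Leaving out each library in turn gave Tead3 a log2 fold change of 0.063 to 0.21.

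To set the TEAD genes beside each other, CPM was divided by the length of the longest protein-coding transcript in GENCODE M21. On this scale of CPM per kilobase, Tead1 was at 13.1 ± 0.420 in the PBS libraries (SD, n = 3), Tead3 at 4.59 ± 0.493, Tead4 at 2.17 ± 0.220 and Tead2 at 1.81 ± 0.223. The ranges of Tead4 and Tead2 overlapped in the PBS group. With LRG1, Tead2 reached 4.71 ± 0.411 CPM per kilobase, a range that overlapped that of Tead3 (4.98 ± 0.284) and lay above that of Tead4 (2.53 ± 0.0800). As a share of the summed TEAD level per kilobase, Tead2 made up 9.16%, 7.58% and 8.38% in the PBS libraries and 17.0%, 15.8% and 19.0% in the LRG1 libraries. Tead1 remained the main TEAD transcript in each library, with 59.0-62.5% and 53.5-57.4%. With merged exon lengths in place of the longest transcript, Tead2 stood above Tead3 in the LRG1 group, at 3.34 against 2.06 CPM per kilobase. The transcripts in use in these cells were not measured.

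**Figure D2:**
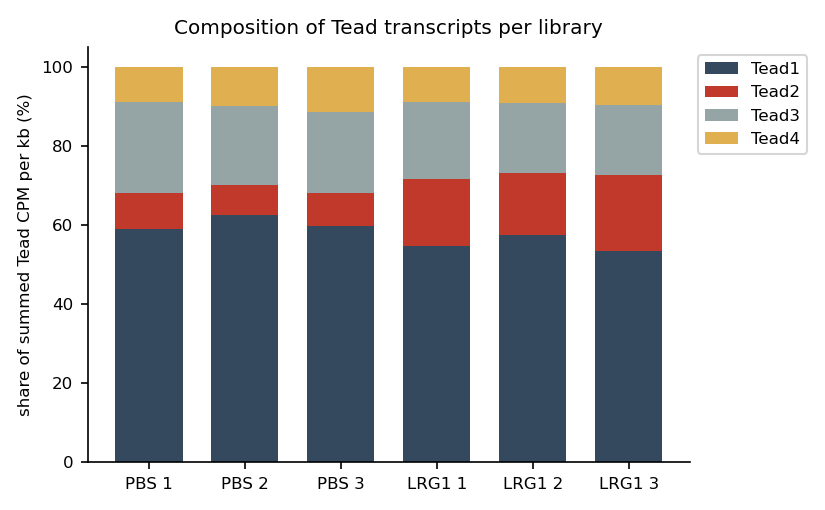
Share of the summed Tead level (CPM per kilobase of the longest coding transcript, y axis in %) held by each of the 4 Tead genes in each of the 6 libraries (x axis). The red Tead2 segment is 7.58-9.16% in the PBS bars and 15.8-19.0% in the LRG1 bars.

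Both kinase genes passed the threshold, with a fitted fold change larger for Lats2 than for Lats1; the test of their ratio is given with the other paralogs. Lats2 (chr14:57689662-57758388, minus strand), which is also a YAP target, had 64.1, 65.9 and 61.3 CPM with PBS and 77.8, 80.9 and 82.4 CPM with LRG1. Its groups lay apart by more than the spread in either (log2 fold change 0.33, SE 0.048, adjusted p = 2.81e-06). GENCODE M21 lists Gm49361, a gene on the same strand that shares 2955 bases of exon with Lats2, and the annotation used for counting is not given in the sources used here.

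Lats1 (chr10:7681214-7716460, plus strand) had 84.8, 83.8 and 85.2 CPM with PBS and 92.7, 94.96 and 86.96 CPM with LRG1. The LRG1 values were all higher, although LRG1 replicate 3 came within 2 CPM of the PBS group (log2 fold change 0.11, SE 0.046, adjusted p = 0.0389). This call was lost in 8 of 13 alternatives. Leaving out PBS replicate 1, 2 or 3 gave an adjusted p of 0.0777, 0.0867 and 0.0646, and leaving out LRG1 replicate 1 or 2 gave 0.109 and 0.188.

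The members known mainly as target genes went in opposite directions. Amotl2 (chr9:102716672-102733418, plus strand), an angiomotin-like protein that binds YAP and activates LATS kinases, had 117, 116 and 123 CPM with PBS. With LRG1 it had 177, 176 and 180.5 CPM. The lowest LRG1 value was far above the highest PBS value (log2 fold change 0.59, SE 0.040, adjusted p = 1.38e-11), and the log2 fold change stayed between 0.53 and 0.62 over the alternatives.

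Ankrd1 (chr19:36111961-36120099, minus strand) encodes a nuclear and sarcomeric ankyrin repeat protein that is widely used as a readout of YAP activity. It had 106, 134 and 105 CPM with PBS and 93.5, 102 and 104 CPM with LRG1. PBS replicate 2 stood well above the other 5 libraries, and LRG1 replicate 3 was only about 1 CPM below PBS replicate 3. The log2 fold change was -0.21 (SE 0.067, adjusted p = 0.0130). Without PBS replicate 2 it was -0.083 and did not pass (adjusted p = 0.194), and without LRG1 replicate 1 it was -0.17 (adjusted p = 0.0648). DESeq2 gave an adjusted p of 0.194 with all libraries.

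The LRG1 values lay entirely above or below the PBS values for 7 of the 10 members, 6 of them above, against 57.6% of all tested genes in either direction and 29% above. The median log2 fold change of the 10 members was 0.16, and that of all tested genes was 0.0093. Both figures describe the genes and do not test them as a group.

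**Figure D3:**
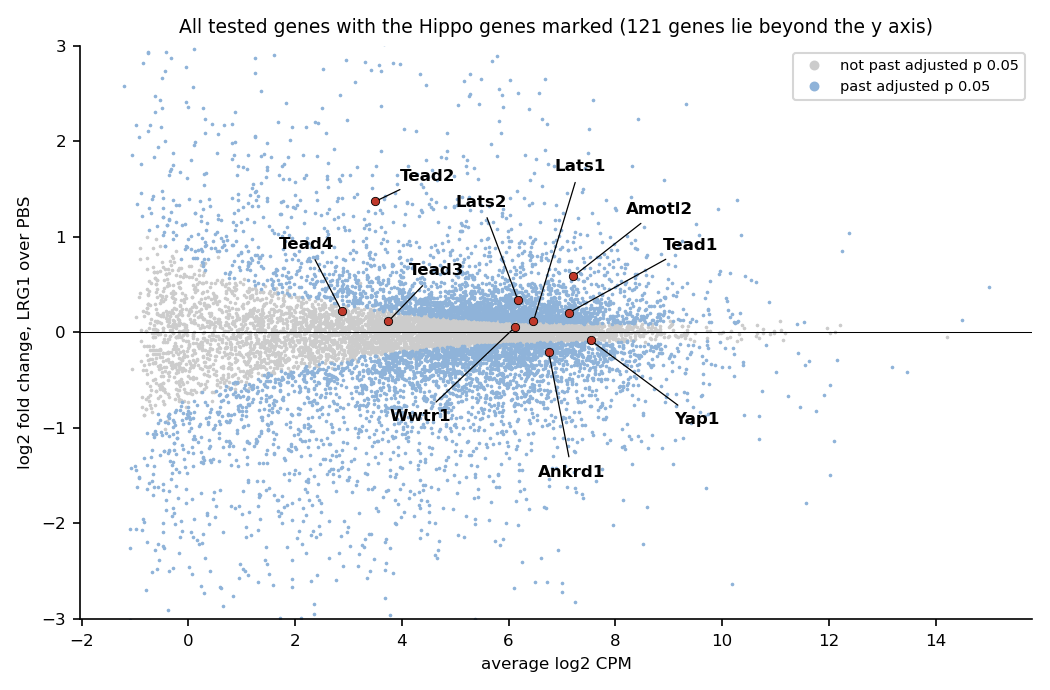
Log2 fold change, LRG1 over PBS (y axis), against average log2 CPM (x axis) for the 12301 tested genes; grey and blue points are genes not past and past the adjusted p of 0.05, red points are the 10 Hippo pathway genes, and 121 genes lie beyond the y axis. Tead2 (1.37) and Amotl2 (0.59) stand apart from the other members, which lie between -0.21 and 0.33.

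Per kilobase of the longest coding transcript, the order of the members in the PBS group was Ankrd1 (57.1 ± 8.20 CPM per kilobase), Yap1 (45.9 ± 1.27), Amotl2 (27.4 ± 0.941), Wwtr1 (14.5 ± 0.837), Tead1, Lats2 (12.3 ± 0.438), Lats1 (11.7 ± 0.0971), Tead3, Tead4 and Tead2. The ranges of Tead1 and Lats2 overlapped, as did those of Tead4 and Tead2. In the LRG1 group Amotl2 reached 41.1 ± 0.505 CPM per kilobase, and its range (40.8 to 41.7) overlapped that of Yap1 (41.2 to 45.02). Lats2, Tead1 and Wwtr1 also overlapped there, at 15.5 ± 0.456, 15.1 ± 0.626 and 15.02 ± 0.275 CPM per kilobase. The order depends on the length used. With merged exon lengths Lats1 stood above Tead1 and Lats2 in the PBS group, and Tead3 and Tead4 were nearly level (1.90 and 1.85 CPM per kilobase). In the LRG1 group Amotl2 was then above Yap1 (28.3 and 19.5), and Tead4 above Tead3 (2.16 and 2.06).

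Whether paralogs moved by different amounts was tested on the log2 ratio of their counts within each library, which does not depend on library scaling. The Tead2 to Tead1 ratio rose by 1.17 on the log2 scale, from 0.0415-0.0531 in the PBS libraries to 0.0941-0.121 in the LRG1 libraries. The Lats2 to Lats1 ratio rose by 0.22, from 0.720-0.786 to 0.839-0.948, and the Wwtr1 to Yap1 ratio by 0.14, from 0.339-0.369 to 0.378-0.416. For these 3 of the 5 ratios the groups did not overlap, and each had an exact permutation p of 0.1 (two-sided, 0.167 after adjustment over the 5), the smallest that 3 against 3 libraries can give, so no ratio could pass 0.05. The ratios of Tead3 and Tead4 to Tead1 differed by -0.084 and 0.017 with overlapping groups (exact permutation p = 0.5 and 0.9).

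**Figure D4:**
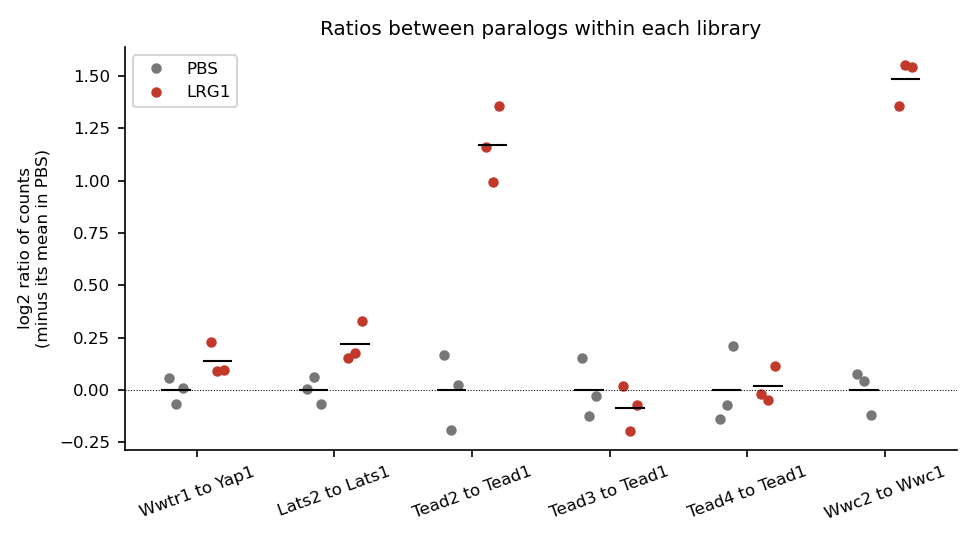
Log2 ratio of counts between paralogs within each library, minus its mean in the PBS group (y axis), for 6 pairs (x axis); points are PBS (grey) and LRG1 (red) libraries and bars are group means. The groups do not overlap for Wwtr1 to Yap1, Lats2 to Lats1, Tead2 to Tead1 and Wwc2 to Wwc1, and do overlap for Tead3 and Tead4 against Tead1.

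Around these members, a list of 30 genes that regulate the pathway was read in the same way. With 27 of them tested, 15 rose, 4 fell and 8 did not pass. Of the tested regulators 70.4% passed against 51.4% of all tested genes, and 55.6% were higher against 25.5%. The median log2 fold change of the tested regulators was 0.14. The genes not tested were Fat4, with 5 to 18 reads per library, and Vgll1 and Vgll2, with no read. The core cassette moved little. Stk3, which encodes the MST2 kinase, had a log2 fold change of 0.24 (29.5 ± 1.602 to 34.8 ± 1.10 CPM, adjusted p = 0.00271), and Stk4, the MST1 gene, did not pass (0.11, adjusted p = 0.0720). Its adjusted p was 0.0399 with scaling to total counts and 0.0406 when LRG1 replicate 1 was left out. The scaffold gene Sav1 was at 0.18 and Nf2, which encodes the upstream activator merlin, at 0.16. The MOB1 genes went in opposite directions, with Mobkl1b (Mob1a) at 0.14 and Mobkl1a (Mob1b) at -0.27. Some of these calls were lost when 1 library was left out, although the fold changes kept their sign. In the fit without PBS replicate 1 the log2 fold changes of Sav1, Nf2 and Mobkl1b were 0.15, 0.14 and 0.13. Without PBS replicate 1 the adjusted p of Sav1, Nf2 and Mobkl1b rose to 0.0510, 0.0681 and 0.0668, and it was 0.0530 for Sav1 without LRG1 replicate 2, 0.0860 for Nf2 without LRG1 replicate 1 and 0.124 for Mobkl1b without LRG1 replicate 3. DESeq2 gave 0.0643 for Mobkl1b and 0.0660 for Nf2, and Nf2 had 0.0945 with length and GC trends removed.

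The regulators past the threshold with at least a 1.5-fold difference, as found for 18.1% of all tested genes, were Wwc1, Wwc2, Map4k4, Amotl1, Wtip, Vgll3 and Vgll4. Wwc1 encodes KIBRA, a scaffold that promotes LATS activation, and had 117, 118 and 124 CPM with PBS against 69.2, 64.4 and 64.3 CPM with LRG1. Its log2 fold change was -0.86 (SE 0.046, adjusted p = 1.38e-13). Its paralog Wwc2 had 75.6, 74.4 and 69.9 CPM with PBS and 108, 115 and 115 CPM with LRG1. The log2 fold change was 0.62 (adjusted p = 5.9e-11). The Wwc2 to Wwc1 ratio of counts, examined after these values were seen, went from 0.564-0.644 to 1.57-1.79. Wwc2 thus had fewer reads than Wwc1 in every PBS library and more in every LRG1 library, with no correction for length.

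Map4k4, a kinase that can phosphorylate LATS beside the MST kinases, rose from 154 ± 9.13 to 266 ± 7.21 CPM (log2 fold change 0.79). Vgll4, a TEAD-binding protein that competes with YAP, rose from 25.5 ± 0.398 to 40.1 ± 0.545 CPM (log2 fold change 0.66). Vgll3, of the same family, was scarce but higher, at 1.08 ± 0.212 and 2.72 ± 0.397 CPM. Wtip, an Ajuba-family LIM protein that restrains LATS, went from 5.07 ± 0.666 to 8.21 ± 0.495 CPM, and Amotl1, an angiomotin like Amotl2, from 2.31 ± 0.0393 to 3.68 ± 0.678 CPM. Ajuba itself (row Jub) was 1.18-fold higher. The genes lower with LRG1 besides Wwc1 and Mobkl1a were Taok3, a kinase upstream of the MST kinases, at 1.19-fold, and the cadherin gene Fat1 at 1.13-fold. The Fat1 groups overlapped, and it did not pass without PBS replicate 1 (log2 fold change -0.046, adjusted p = 0.4996), without LRG1 replicate 3 (-0.12, adjusted p = 0.212), with scaling to total counts (adjusted p = 0.0636) or in DESeq2 (adjusted p = 0.340).

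A further list held 19 genes of a widely used YAP and TAZ target signature, leaving out Amotl2, Lats2 and Ankrd1, which belong to it too. Among the 18 tested, 12 rose, 2 fell and 4 did not pass. The share past the threshold was 77.8% against 51.4% of all tested genes, and the share higher was 66.7% against 25.5%. The median log2 fold change was 0.44, also with Foxf2 at its lower bound, and that of all tested genes was 0.0093. This list and that of the regulators were chosen with earlier results of these data known. Their shares and medians describe the genes and do not test them as a group. Rbms3, with 0 to 6 reads per library, was not tested. The rows of Ctgf, Gadd45a, Tgfb2, Ptpn14, Foxf2, Wwc2, Sav1 and Fat1 overlap a gene on the opposite strand in GENCODE M21, and whether the counting used strand is not given in the sources used here.

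Nt5e, the ecto-5′-nucleotidase CD73, had the highest fold change of the signature genes with reads in both groups. It had 65.0, 71.9 and 65.2 CPM with PBS and 281, 307 and 292 CPM with LRG1, 4.36-fold higher (log2 fold change 2.12, SE 0.047, adjusted p = 1.82e-20). The kinase gene Nuak2 rose 3.54-fold, from 12.2 ± 0.470 to 43.4 ± 3.52 CPM, and the stress response gene Gadd45a 2.74-fold, from 72.3 ± 0.970 to 198 ± 3.22 CPM. Myof, a membrane repair protein gene, rose 1.76-fold. Foxf2, a forkhead factor, had no read in the PBS libraries and 82 reads over the LRG1 libraries, which is at least 24.8-fold higher against a floor of 3 reads over the PBS group, and its level stayed low at 1.31 ± 0.418 CPM.

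The matricellular genes Ctgf and Cyr61 are both textbook YAP targets, and only Ctgf passed the threshold. Ctgf had 531, 607 and 547 CPM with PBS and 1299, 1427 and 1386 CPM with LRG1, 2.44-fold higher (log2 fold change 1.29, SE 0.047). Cyr61, named here for this contrast after its values were seen, had 484, 521 and 523 CPM with PBS and 535, 538 and 527 CPM with LRG1. It did not pass (log2 fold change 0.07, adjusted p = 0.149, 95% interval -0.01 to 0.15), and with length and GC trends removed it did, at 0.13. The intervals of the log2 fold changes of Ctgf (1.19 to 1.39) and Cyr61 were far apart, but the difference itself was not tested. The signature genes that fell were Tgfb2, the TGF-beta 2 ligand gene, from 26.1 ± 0.936 to 7.05 ± 0.465 CPM (log2 fold change -1.88), and Ptpn14, a phosphatase that binds YAP, at -0.29.

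**Figure D5:**
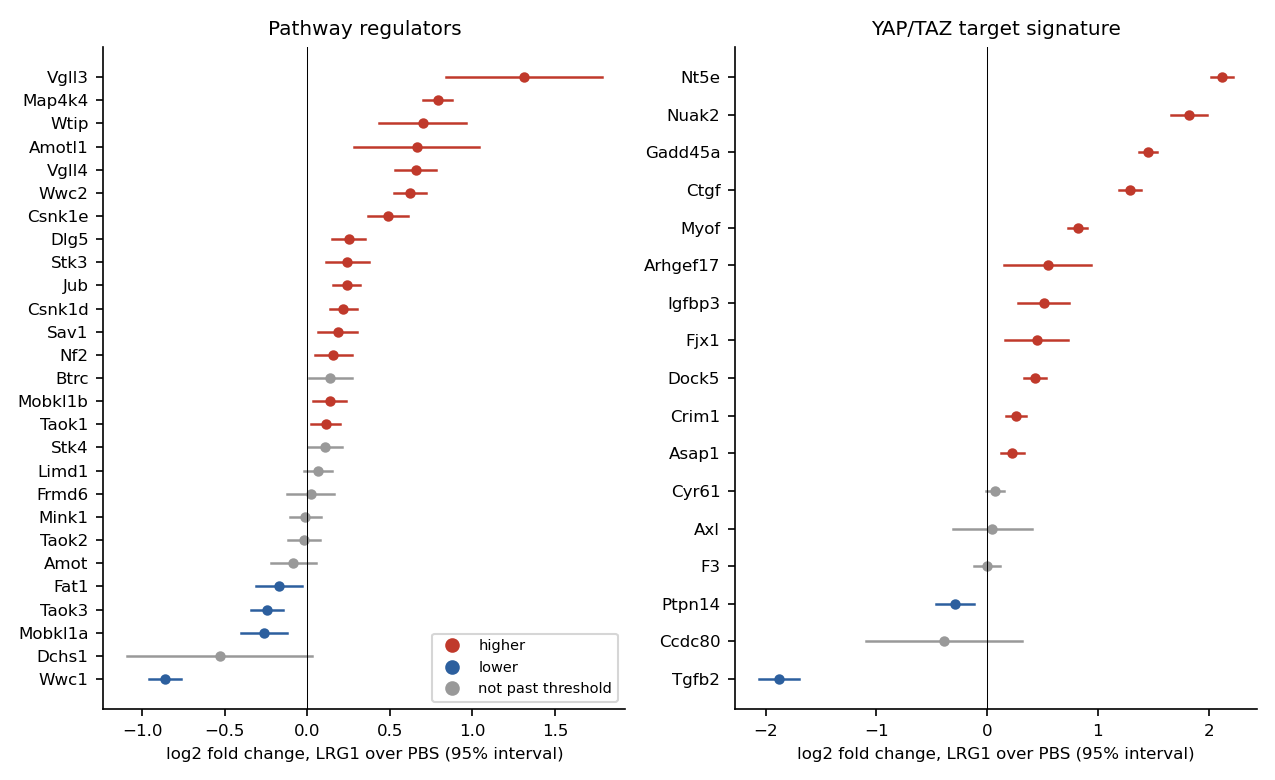
Log2 fold change, LRG1 over PBS, with its 95% interval (x axes) for the tested regulators (left) and the tested YAP and TAZ target genes (right), coloured by the call at an adjusted p under 0.05; Foxf2, without reads in the PBS group, is left out. Most regulators lie within 0.5 of 0, with Wwc1 at -0.86 and Vgll3 at 1.31, while the targets run from Tgfb2 at -1.88 to Nt5e at 2.12.

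The genes whose log2 CPM followed Tead2 most closely over the 6 libraries were Golt1b, Rcc2 and Pros1, each with a Pearson r of 0.999. Their own log2 fold changes were 0.34, 0.47 and 0.51. With 6 libraries in 2 groups many genes followed Tead2 closely: 1264 tested genes had an r above 0.95 with it, a lower cut than 0.999. For Ankrd1, the member with the lowest fold change, the closest genes were Gm8909, Ankrd28 and Lipt2 (r = 0.996, 0.981 and 0.976), none of them past the threshold, and 19 genes had an r above 0.95. All 3 shared with Ankrd1 the high value in PBS replicate 2, at 1.08, 78.6 and 4.42 CPM.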

How the data were processed

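Poly(A) RNA of 3 PBS and 3 LRG1 samples was sequenced with a strand-marking kit and single 50-base reads, per the labels' protocols. The authors deposited raw read counts per gene symbol, made with bcl2fastq, TopHat2 and HTSeq on mm9 per the submitters' processing notes; their versions, the annotation and the strand setting were not stated there. The 5 HTSeq summary rows of each file were left out: reads in no gene were 8.96-10.3% and ambiguous reads 0.258-0.280% of uniquely aligned reads, and non-unique alignments 58.2-59.3% of all rows' sum.

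Genes were kept by filterByExpr (minimum count 10), leaving 12301, and tested with edgeR 4.0.16 (R 4.3.3): TMM scaling, quasi-likelihood F test on treatment, Benjamini-Hochberg adjustment over all tested genes, threshold 0.05. SEs come from the F statistic and 95% intervals from its degrees of freedom. Depth was 18625748 to 23036332 gene counts per library. The fit was tested on simulated counts, in which far fewer genes changed than were called here. Paralog ratios used 0.5 added reads. GENCODE M21 and RefSeq (GRCm38) gave lengths, overlaps and sequences by symbol.

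Members and lists were chosen with earlier results of these data known. One marker gene is not reported here. Named genes were the members, list genes past the threshold with at least 1.5-fold differences, the 4 smallest p-values of each list, and the 3 genes most correlated with the highest and lowest member. Stk3, Stk4, Sav1, Nf2, the MOB1 genes, Ajuba, Taok3, Fat1, Cyr61 and Ptpn14 were named after their values were seen. The division of levels by length was also chosen then. Alternatives were DESeq2 1.42.0 size factors, total counts, no filter, DESeq2, limma-voom (limma 3.58.1), a replicate block, leaving out each library, and removal of GC and length trends.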

Additional observations from a re-analysis of the deposited data

How the results depend on the processing

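Tead2, Amotl2, Lats2 and Tead1 kept their direction and passed in all 13 alternatives, and Wwtr1, Tead3 and Tead4 kept theirs and did not pass in any. Yap1 passed with GC and length trends removed (-0.13), in no other. Lats1 did not pass with DESeq2 (0.11), the replicate block (0.11), trends removed (0.080) or in 5 of 6 fits without a library (all 6: 0.088 to 0.15). Ankrd1 did not pass with DESeq2 (-0.21) or without PBS replicate 2 or LRG1 replicate 1 (leaving out each: -0.27 to -0.083). The cause was not tested. The Tead4 to Tead1 ratio changed sign without PBS replicate 1, PBS replicate 2 or LRG1 replicate 3 (range over left-out libraries: -0.053 to 0.12; -0.053, -0.019 and -0.032 in those named). Called genes numbered 5485 (DESeq2) to 6592 (no filter), against 6317. The lists had 15 to 20 called regulators and 12 to 14 called targets. Same-numbered PBS and LRG1 replicates did not deviate together (correlations -0.12, -0.014 and -0.12), so the numbers are not taken as pairs; with the replicate block 5890 genes, 5 members, 18 regulators and 14 targets passed. Tead4 and Tead3 had 120 to 309 reads per library and SEs of 0.12 and 0.095; the part of depth in their missing calls was not tested.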
